A study of Mus musculus with 6 samples.

Results

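Cortical layer and projection neuron markers are genes whose transcripts mark the glutamatergic neurons of the neocortex and the layers those neurons occupy. The set was given as 9 gene symbols, fixed by name, and all 9 were found among the 18283 genes of the deposited table. Slc17a7 marks glutamatergic cortical neurons of all layers, Cux2, Rasgrf2 and Rorb mark upper layers, and Fezf2, Bcl11b, Tle4, Foxp2 and Tbr1 mark deep layers. RNA came from the cortex of wild-type (WT) mice that had received AAV-GFP-GA or AAV-GFP, with 3 libraries per group and a labelled time of 5 months. AAV, adeno-associated virus, is a gene delivery vector. AAV-GFP-GA carries green fluorescent protein (GFP) joined to poly-GA, a glycine-alanine repeat protein made from the C9orf72 repeat expansion, and AAV-GFP carries GFP alone. All animals therefore received a vector, and the labels give neither the promoter of the vector, the site of injection, the sex nor the animal behind each library. The p-values below measure the spread between libraries, which the labels do not tie to separate animals.

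The neocortex is built of layers whose neurons differ in birth date, connections and gene expression. Upper layer neurons connect mainly with other parts of cortex, while deep layer neurons send axons to subcortical targets, from thalamus to spinal cord. A small network of transcription factors sets these identities in development and part of it stays expressed in the adult: Fezf2 and Bcl11b (CTIP2) in subcerebral projection neurons, Tbr1, Tle4 and Foxp2 in corticothalamic neurons, and Cux2 and Rorb in upper layers. The levels of upper against deep markers can show whether a dissection took the layers evenly or whether neurons of a layer were lost.

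Totals were between 16748754 and 17576017 expected counts per library, the estimated reads per gene summed over genes. AAV-GFP replicate 3 stood apart in its Y-linked genes, which summed to a counts-per-million (CPM) value of 0.0577, against 115.8 to 118.0 CPM in AAV-GFP-GA libraries and 132.8 and 135.7 CPM in the other AAV-GFP libraries. Along the first principal component (32.1% of the variance of log2 CPM), AAV-GFP replicates 1 and 2 lay at 17.4 and 14.7, and the other 4 libraries between -15.8 and -3.58. Defining markers of neighbouring regions also differed between libraries, as given with the deep layer results. Results are therefore also given without single libraries, and in a fit with a term that sets AAV-GFP replicates 1 and 2 apart, which leaves AAV-GFP-GA against AAV-GFP replicate 3 alone. In that fit the single control library has no spread of its own and is assumed to vary like the others. It is also the library almost without Y-linked reads, as from female tissue. Vector and sex therefore cannot be told apart in any value given against AAV-GFP replicate 3 alone. The groups of the main comparison are uneven in Y-linked reads as well, since that library is in the AAV-GFP group only. Only the fit without AAV-GFP replicate 3 holds no library of this kind.

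None of the 9 markers passed the threshold, an adjusted p under 0.05 by edgeR's quasi-likelihood test over 14324 tested genes, of which 3, or 0.0209%, passed, none of them in the marker lists described here. DESeq2 and limma-voom likewise called 0 of the 9. All 9 passed the filter on low counts. At an unadjusted p under 0.05 there were 2 markers by each of the 3 tools. These were Cux2, higher in AAV-GFP-GA cortex, and Bcl11b, lower in it. Of all 14324 tested genes, 951 (6.64%) were under that level by edgeR, 607 by DESeq2 and 935 by limma-voom. Of the 9 log2 fold changes, 5 were positive and 4 negative, with a median of 0.0022, beside a median of -0.0039 over all tested genes. They ran from -0.25 for Foxp2 to 0.24 for Cux2, and the wider bounds of their 95% intervals were 0.668-fold, for Foxp2, and 1.35-fold, for Cux2. In whole tissue, fewer cells of a type and less RNA per cell cannot be told apart.

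**Figure D1:**
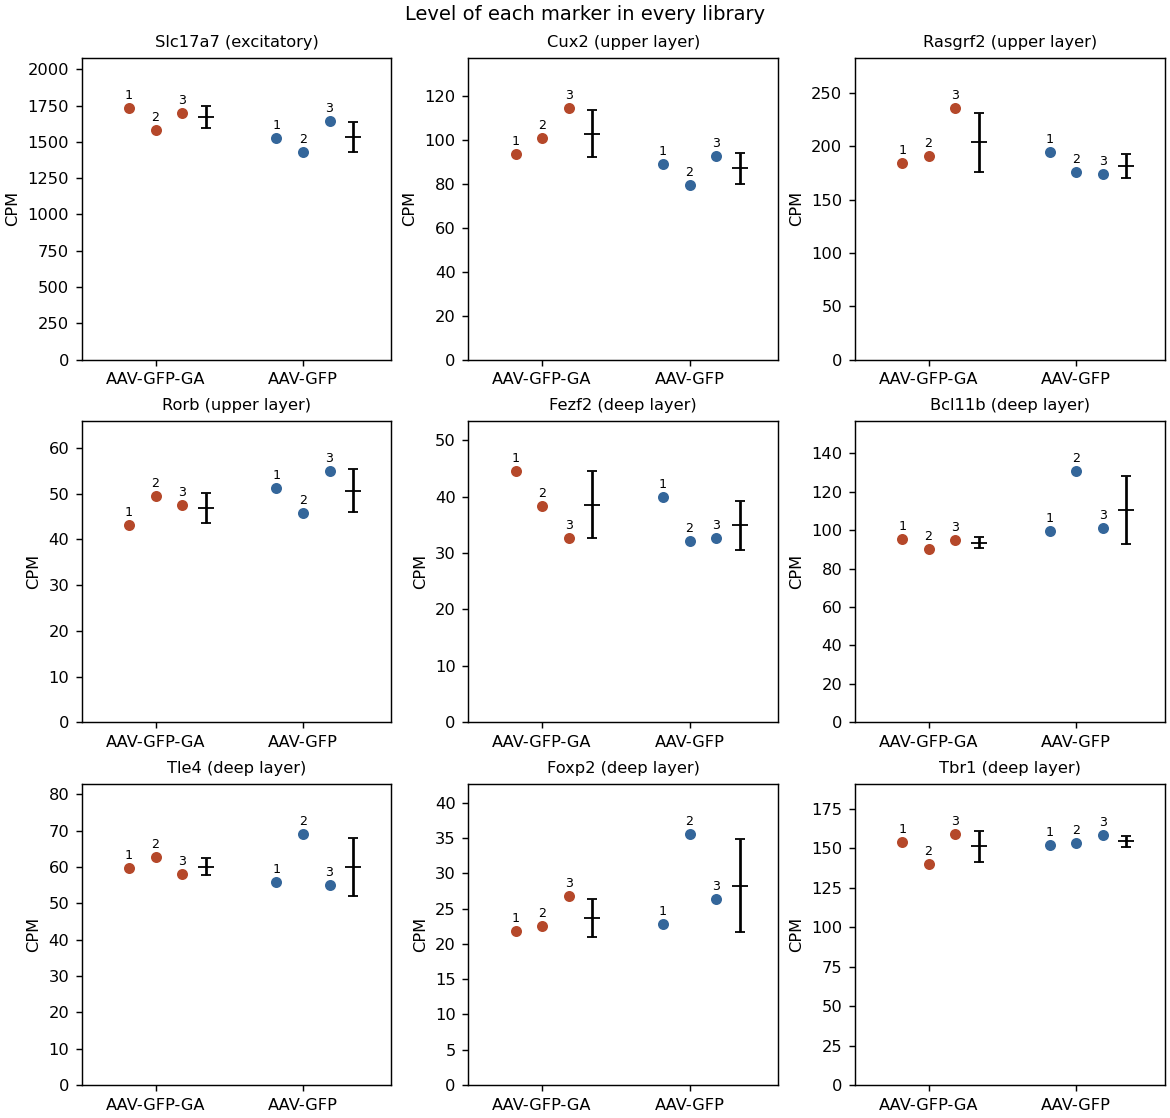
Level of each of the 9 markers in CPM, from 0, in the 3 AAV-GFP-GA libraries (left) and the 3 AAV-GFP libraries (right). Points are libraries, numbered by replicate, and the black bars are mean ± SD. The groups do not overlap for Cux2 and Bcl11b, and AAV-GFP replicate 2 is the highest library for Bcl11b, Tle4 and Foxp2.

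Slc17a7 encodes VGLUT1, the transporter that loads glutamate into synaptic vesicles of cortical excitatory neurons (Entrez gene 72961, chromosome 7, 45163921 to 45176139, mm10). It had 1731, 1584 and 1698 CPM in the AAV-GFP-GA libraries, against 1527, 1430.3 and 1643 CPM in the AAV-GFP libraries. The groups overlapped, because AAV-GFP-GA replicate 2 lay below AAV-GFP replicate 3. Its log2 fold change by edgeR was 0.12 ± 0.06 (SE; 95% interval -0.01 to 0.26, adjusted p = 0.746). It was 0.02 ± 0.07 against AAV-GFP replicate 3 alone, 0.18 ± 0.05 without that library and 0.08 ± 0.06 without AAV-GFP replicate 2. Over all alternatives its adjusted p lay between 0.114 and 0.9999.

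Per length of exon, Slc17a7 was by far the most abundant of the markers, with 265 to 321 reads per kilobase of exon, scaled as the CPM (RPKM), over the 6 libraries. Tbr1 followed with 25.6 to 29.0 RPKM and Rasgrf2 with 18.8 to 25.5 RPKM, ranges that nearly touched. Bcl11b (11.1 to 16.1 RPKM), Fezf2 (10.6 to 14.6 RPKM), Tle4 (9.64 to 12.1 RPKM) and Cux2 (7.87 to 11.3 RPKM) each overlapped the next in this order. Rorb, at 3.90 to 4.96 RPKM, and Foxp2, at 1.33 to 2.18 RPKM, were lowest and did not overlap each other or Cux2. These levels divide by all annotated exons of a gene, 16.3 kb for Foxp2 and 3.05 kb for Fezf2, so genes with many alternative exons come out low.

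The upper layer markers had mixed signs. Cux2 encodes a homeodomain protein of layer II to IV neurons that regulates dendrites and spines in mouse (Entrez gene 13048, chromosome 5, 121857962 to 122050415). It had 93.5, 101 and 114 CPM in the AAV-GFP-GA libraries, against 88.8, 79.4 and 92.7 CPM in the AAV-GFP libraries. All AAV-GFP-GA libraries lay above all AAV-GFP libraries, but the lowest of the first and the highest of the second were less than 1 CPM apart. Non-overlap of this kind held for 11.9% of all tested genes, and for 6.09% in the higher direction. By edgeR its log2 fold change was 0.24 ± 0.08 (95% interval 0.05 to 0.43, unadjusted p = 0.0160, adjusted p = 0.742). This came to 0.18 ± 0.09 without AAV-GFP replicate 2, 0.16 ± 0.08 without AAV-GFP-GA replicate 3, and 0.15 ± 0.11 against AAV-GFP replicate 3 alone.

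Rasgrf2 encodes an exchange factor that activates Ras and Rac proteins and serves as a marker of layer II and III (Entrez gene 19418, chromosome 13, 91880407 to 92131828). It had 184, 191 and 236 CPM in the AAV-GFP-GA libraries, against 195, 176 and 174 CPM in the AAV-GFP libraries. One library, AAV-GFP-GA replicate 3, was high, and the other 5 lay between 174 and 195 CPM. The difference, 0.17 ± 0.09 on the log2 scale (edgeR, adjusted p = 0.751), came to 0.05 ± 0.07 without that library. Rorb encodes a nuclear receptor that shapes layer IV and its barrels in mouse (Entrez gene 225998, chromosome 19, 18930609 to 19111196). It had 43.2, 49.6 and 47.6 CPM in the AAV-GFP-GA libraries, against 51.3, 45.8 and 55.0 CPM in the AAV-GFP libraries. The groups overlapped, and Rorb had the opposite sign to Cux2 and Rasgrf2, at -0.12 ± 0.08 on the log2 scale (edgeR, adjusted p = 0.776). Its size depended on single libraries of both groups. The log2 fold change of Rorb was -0.06 ± 0.09 without AAV-GFP-GA replicate 1. It was -0.05 ± 0.08 without AAV-GFP replicate 3, -0.18 ± 0.08 without AAV-GFP replicate 2 and -0.23 ± 0.10 against AAV-GFP replicate 3 alone.

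**Figure D2:**
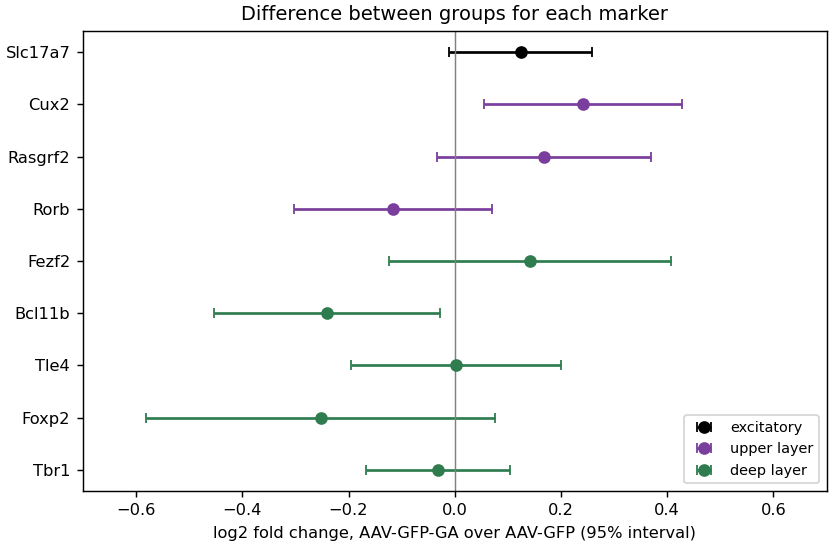
Log2 fold change of each marker, AAV-GFP-GA over AAV-GFP, with its 95% interval from edgeR. Colours separate Slc17a7, the 3 upper layer and the 5 deep layer markers. The intervals of Cux2 and Bcl11b exclude 0 without adjustment for the number of genes, and signs are mixed within both layer classes.

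Signs were mixed among the deep layer markers too. Bcl11b, which encodes the zinc finger protein CTIP2 of subcerebral neurons and is also made in striatal projection neurons (Entrez gene 58208, chromosome 12, 107910403 to 108004145), had 95.4, 90.2 and 94.9 CPM in the AAV-GFP-GA libraries. Its level was 99.6, 131 and 101 CPM in the AAV-GFP libraries. The groups did not overlap, as for 5.79% of tested genes in the lower direction, and AAV-GFP replicate 2 stood well above the other 5 libraries. By edgeR its log2 fold change was -0.24 ± 0.10 (95% interval -0.45 to -0.03, unadjusted p = 0.0303, adjusted p = 0.742). With AAV-GFP replicate 2 left out it was -0.10 ± 0.06 (edgeR, unadjusted p = 0.134), and against AAV-GFP replicate 3 alone it was -0.11 ± 0.12. It was -0.31 ± 0.10 without AAV-GFP replicate 1 and -0.30 ± 0.10 without AAV-GFP replicate 3.

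Foxp2 encodes a forkhead transcription factor of layer VI neurons that is also made in striatum (Entrez gene 114142, chromosome 6, 14901349 to 15441977). It had 21.8, 22.5 and 26.8 CPM in the AAV-GFP-GA libraries, against 22.9, 35.6 and 26.3 CPM in the AAV-GFP libraries. The groups overlapped, with AAV-GFP replicate 2 again the one high library. Its log2 fold change of -0.25 ± 0.15 (edgeR, adjusted p = 0.751) came to -0.05 ± 0.11 without AAV-GFP replicate 2. Without AAV-GFP replicate 1 it was -0.38 ± 0.14, the one alternative in which Foxp2 had an unadjusted p under 0.05 (0.0168 by edgeR). With 381 to 596 reads per library, Foxp2 was the least sampled marker, with a counting error near 5.12% at its lowest count. Its spread in the AAV-GFP group, a coefficient of variation of 23.4%, was the widest of the 9 markers in either group.

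Fezf2, which encodes the zinc finger protein that specifies subcerebral projection neurons in mouse (Entrez gene 54713, chromosome 14, 12338992 to 12346803), had 44.5, 38.4 and 32.7 CPM in the AAV-GFP-GA libraries. Its level was 39.97, 32.2 and 32.6 CPM in the AAV-GFP libraries. The groups overlapped over most of their range, with high and low libraries in both. On the log2 scale the difference was 0.14 ± 0.12 (edgeR, adjusted p = 0.807). Leaving out AAV-GFP-GA replicate 1 gave 0.03 ± 0.12, while 0.25 ± 0.11 was obtained without replicate 3 of that group and 0.25 ± 0.12 without AAV-GFP replicate 1.

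Tle4 encodes a Groucho family co-repressor of corticothalamic neurons (Entrez gene 21888, chromosome 19, 14448072 to 14598183). It had 59.6, 62.7 and 58.0 CPM in the AAV-GFP-GA libraries, against 56.0, 69.2 and 55.0 CPM in the AAV-GFP libraries. The AAV-GFP-GA values lay inside the range of the AAV-GFP values, with a log2 fold change of 0.0022 ± 0.09 (edgeR, adjusted p = 0.998). Tbr1 encodes a T-box factor that sets layer VI identity and represses subcerebral genes in mouse (Entrez gene 21375, chromosome 2, 61802863 to 61814114). It had 154, 140.4 and 159 CPM in the AAV-GFP-GA libraries, against 152, 153 and 158 CPM in the AAV-GFP libraries. The AAV-GFP values lay inside the range of the AAV-GFP-GA values, with a log2 fold change of -0.03 ± 0.06 (95% interval -0.17 to 0.10; edgeR, adjusted p = 0.932). Tbr1 had the narrowest interval of the 5 deep layer markers, with 2491 to 2762 reads per library.

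As Cux2 and Bcl11b were the 2 markers whose groups did not overlap, in opposite directions, the 250 bases before transcript starts of both genes are shown (RefSeq, GRCm38.p6, 5′ to 3′ on the gene's minus strand). The windows lie inside the gene spans given above, since these starts are not the outermost ones. RefSeq sequences were found for 8 of the 9 markers. Capitals mark CpG dinucleotides, the sites of DNA methylation, in:
Cux2, first start, chr5:122049852-122050101: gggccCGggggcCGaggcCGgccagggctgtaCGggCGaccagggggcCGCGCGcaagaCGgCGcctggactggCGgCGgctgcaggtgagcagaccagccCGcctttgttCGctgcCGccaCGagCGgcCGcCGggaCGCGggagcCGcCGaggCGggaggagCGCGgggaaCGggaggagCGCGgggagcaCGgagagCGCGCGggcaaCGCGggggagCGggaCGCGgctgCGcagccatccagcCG
Cux2, second start, chr5:122047826-122048075: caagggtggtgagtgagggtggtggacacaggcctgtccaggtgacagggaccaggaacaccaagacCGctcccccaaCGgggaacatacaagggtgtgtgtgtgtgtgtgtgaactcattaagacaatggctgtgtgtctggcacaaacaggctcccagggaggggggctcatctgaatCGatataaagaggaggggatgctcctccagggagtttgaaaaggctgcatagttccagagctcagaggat
Bcl11b, chr12:108003415-108003664: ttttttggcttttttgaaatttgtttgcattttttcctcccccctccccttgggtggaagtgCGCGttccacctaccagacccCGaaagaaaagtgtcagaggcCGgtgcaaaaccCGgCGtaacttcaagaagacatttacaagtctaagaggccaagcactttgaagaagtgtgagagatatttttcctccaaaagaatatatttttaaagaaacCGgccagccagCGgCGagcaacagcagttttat
The first Cux2 window held 40 CpG dinucleotides and 80.0% G or C, and 98.9% of the 32851 promoter windows of the table held no more CpG than that. The second Cux2 window held 3 CpG and the Bcl11b window 9, beside a median of 6 over all windows. ATCGAT, a sequence that Cux homeodomain proteins bind, and TATAAA were searched on both strands. The second Cux2 window had both, at -72 and -67 from the transcript start and sharing 1 base, while the first Cux2 window and the Bcl11b window had neither. ATCGAT was in 0.728% and TATAAA in 12.4% of all windows. The counts are per gene, so they do not show which of the Cux2 starts was used.

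The difference between the layers was compared library by library, as the mean log2(CPM + 0.5) of Cux2, Rasgrf2 and Rorb minus that of the 5 deep layer markers. Among AAV-GFP-GA libraries it was 0.56, 0.74 and 0.85, against 0.67, 0.31 and 0.68 among AAV-GFP libraries. The means were 0.72 ± 0.15 and 0.56 ± 0.21 (SD, n = 3 each), so the AAV-GFP-GA mean was higher by 0.16, less than the spread within the AAV-GFP group, and the groups overlapped. AAV-GFP replicate 2 was the lowest library, with the upper markers 0.15 below and the deep markers 0.17 above their means over all libraries. Without it the difference between groups was 0.04, and without AAV-GFP-GA replicate 3 it was 0.098. Leaving Bcl11b and Foxp2, the markers shared with striatum, out of the deep class gave 0.06. No p is given for this score, since its genes were chosen with results of these data known.

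**Figure D3:**
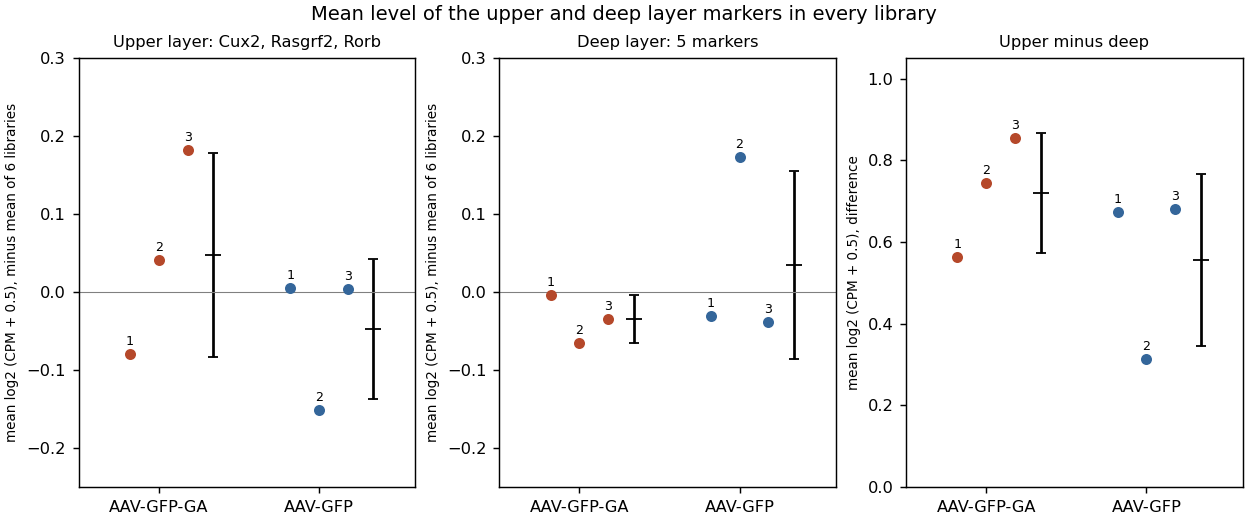
Mean log2(CPM + 0.5) of the 3 upper layer markers (left) and the 5 deep layer markers (middle), each minus its mean over the 6 libraries, and upper minus deep (right), with AAV-GFP-GA left of AAV-GFP. Points are libraries, numbered by replicate, and bars are mean ± SD. AAV-GFP replicate 2 is lowest for the upper markers, highest for the deep markers and lowest, at 0.31, for their difference.

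Markers of the same layer class were not always the closest in pattern. Likeness was taken as the root-mean-square difference of log2 values, each centred on its own mean, over the 6 libraries, where a small value is a like pattern. Cux2 and Rasgrf2 were the closest pair, at 0.093, followed by Slc17a7 and Tbr1, at 0.094, and Slc17a7 and Cux2, at 0.112. Bcl11b and Foxp2 differed by 0.113, and Rorb and Tbr1, an upper and a deep layer marker, by 0.126. The largest difference was inside the deep class, between Fezf2 and Foxp2, at 0.39. Among 9858 other genes with a mean of at least 10 CPM, the nearest to the upper layer mean were Car10, which encodes an inactive carbonic anhydrase of brain, at 0.014, Zfp933 at 0.025 and Prr16 at 0.030, beside a median of 0.14 over all candidates. The nearest to the deep layer mean were Nipsnap2, which encodes a mitochondrial protein, at 0.011, Cct8, a subunit of the cytosolic chaperonin, at 0.016, and Noct, a circadian phosphatase, at 0.021, beside a median of 0.11. A gene without any variation would lie at 0.10 from the upper and 0.08 from the deep layer mean. None of these 6 genes passed the threshold, with adjusted p-values between 0.804 and 0.893 by edgeR. They were picked by their levels in these same libraries, so this is no separate result.

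Bcl11b, Foxp2 and Tle4 were all highest in AAV-GFP replicate 2, and markers of striatal projection neurons were high there too. The 18 striatal markers summed to 1755, 1712 and 1977 CPM in the AAV-GFP-GA libraries, against 1296, 2561 and 2544 CPM in the AAV-GFP libraries. AAV-GFP replicate 3 thus had nearly the same striatal sum as replicate 2, with Bcl11b at 101 and Foxp2 at 26.3 CPM, and AAV-GFP replicate 1 had the lowest. No striatal marker was at 0 in any library. All 18 had a negative log2 fold change, with a median of -0.24, and 0 passed by edgeR, 0 also at an unadjusted p under 0.05. Ppp1r1b, which encodes DARPP-32, had 311 ± 26.4 CPM in AAV-GFP-GA cortex and 337 ± 118 CPM in AAV-GFP cortex, and Penk, which encodes proenkephalin, had 238 ± 31.6 and 302 ± 116 CPM in the same order (SD, n = 3 each). Without AAV-GFP replicate 2 the median of the striatal list was -0.09, with 5 positive and 13 negative. Without AAV-GFP replicate 1 it was -0.52, with 17 lower at an unadjusted p under 0.05 by edgeR, as were 2.78% of all genes there, and 1, Scn4b, past the threshold. The part of striatal tissue in the levels of Bcl11b and Foxp2 was not tested.

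**Figure D4:**
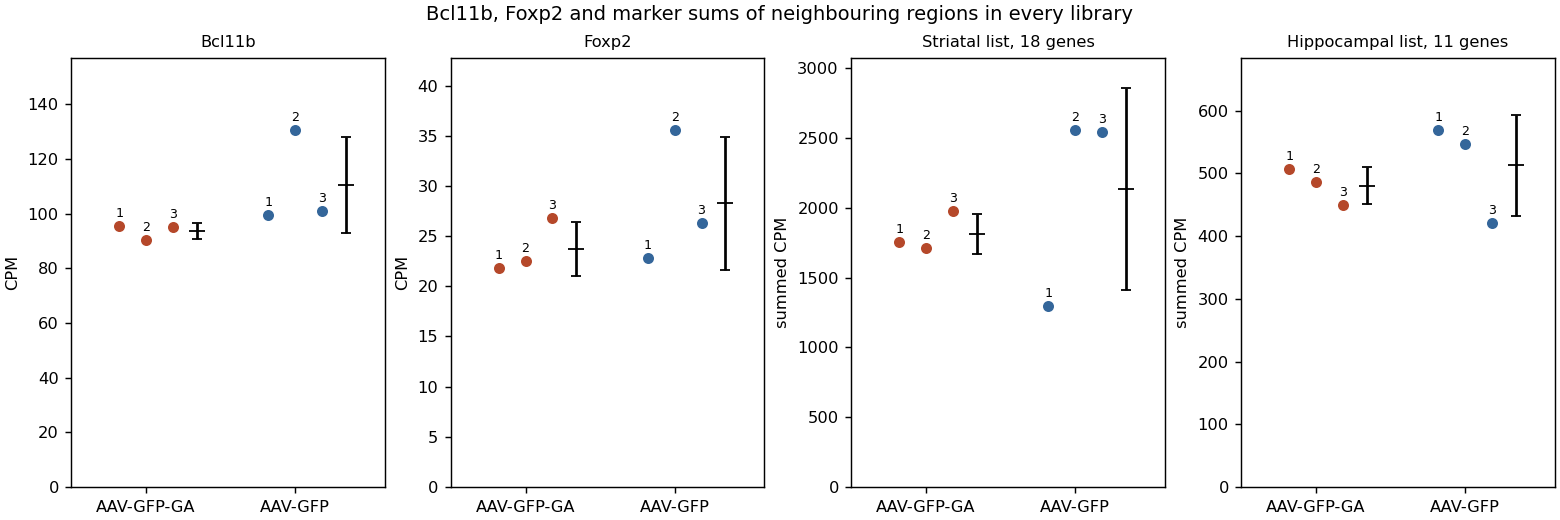
Bcl11b and Foxp2 in CPM, and the summed CPM of 18 striatal and 11 hippocampal markers, in AAV-GFP-GA (left) and AAV-GFP (right) libraries, with axes from 0. Points are libraries, numbered by replicate, and bars are mean ± SD. AAV-GFP replicates 2 and 3 both have high striatal sums, 2561 and 2544 CPM, but only replicate 2 is high for Bcl11b.

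Other regions varied as well. The 11 hippocampal markers summed to 506, 486 and 449 CPM in the AAV-GFP-GA libraries, against 570, 547 and 421 CPM in the AAV-GFP libraries, with AAV-GFP-GA replicate 3 and AAV-GFP replicate 3 the lowest of their groups. None was at 0, and 0 of 11 passed by edgeR, 0 also at an unadjusted p under 0.05, with a median log2 fold change of -0.11. The sign of this median depended on the libraries: it was 0.098 without AAV-GFP replicate 1, 0.02 without AAV-GFP-GA replicate 3 and 0.84 against AAV-GFP replicate 3 alone, but -0.41 without AAV-GFP replicate 3. The sums were mostly Calb1, Wfs1 and Zbtb20, while Dsp, a low member, ran from 0.288 to 9.27 CPM in the AAV-GFP-GA libraries and from 1.67 to 12.9 CPM in the AAV-GFP libraries. The most abundant members, Calb1, a calcium buffer that is also among the other upper layer markers, and Wfs1, had -0.06 ± 0.06 and -0.11 ± 0.09. Of 10 thalamic markers 0 passed by edgeR, 9 were positive and 1 negative, and the median log2 fold change was 0.21. Amotl1 alone was higher at an unadjusted p under 0.05 by edgeR, beside 3.19% of all tested genes. Its level was 35.2 ± 2.47 CPM in AAV-GFP-GA cortex and 30.9 ± 1.70 CPM in AAV-GFP cortex. Slc17a6, which encodes the glutamate transporter VGLUT2 of thalamic neurons, had 32.5 ± 4.64 and 28.6 ± 4.26 CPM in the same order (SD, n = 3 each). Leaving out single libraries moved the thalamic median between 0.12 and 0.23, and it was 0.32 against AAV-GFP replicate 3 alone. The sum of the 7 choroid plexus markers ran from 44.5 to 547 CPM in the AAV-GFP-GA libraries and from 239 to 1138 CPM in the AAV-GFP libraries. By edgeR 0 passed, and Clic6 alone was lower at an unadjusted p under 0.05, beside 3.45% of all tested genes. Ttr and Kl, the most abundant of the 7, had log2 fold changes of -0.90 ± 0.76 and -0.81 ± 0.45.

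Further markers of the same neurons were measured to see whether the 9 stood alone. Of 18 other upper layer markers 0 passed by edgeR, 12 had positive and 6 negative log2 fold changes, and the median was 0.06. Stard8 alone, which encodes a GTPase activating protein, was higher at an unadjusted p under 0.05 by edgeR, beside 3.19% of all tested genes. It had 36.3, 37.8 and 41.4 CPM in the AAV-GFP-GA libraries, against 30.1, 29.3 and 36.3 CPM in the AAV-GFP libraries. Lamp5 had a log2 fold change of 0.19 ± 0.10. Without AAV-GFP replicate 3, 1 of the 18, Lamp5, passed the threshold by edgeR, and 5 were higher and 1 lower at an unadjusted p under 0.05, beside 9.5% higher and 10.3% lower of all genes in that fit. Without AAV-GFP-GA replicate 3 the list had 9 positive and 9 negative values, a median of 0.011, and 0 higher and 2 lower, beside 2.93% of all genes in each direction.

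Of 27 other deep layer markers 0 passed by edgeR, 14 had positive and 13 negative log2 fold changes, and the median was 0.0024. At an unadjusted p under 0.05 there were 0 higher and 6 lower, beside 3.19% higher and 3.45% lower of all tested genes. The 6 were Lxn, Nr4a2, Pcp4, Sulf1, Qrfpr and Ctgf. DESeq2 had 2 lower at that level, Lxn and Pcp4, beside 300 of all 14324 genes lower by DESeq2. Nr4a2, an orphan nuclear receptor of layer VIb and claustrum that also responds to activity, had 89.0, 67.5 and 82.5 CPM in the AAV-GFP-GA libraries, against 133, 107 and 77.9 CPM in the AAV-GFP libraries. Pcp4, a calmodulin regulator of deep layers that striatum also makes, had 289, 244 and 249.6 CPM in the AAV-GFP-GA libraries, against 256, 363 and 334 CPM in the AAV-GFP libraries. The groups of both genes overlapped. Lxn, Qrfpr and Ctgf did not overlap between groups, as for 5.79% of all tested genes in the lower direction. Their log2 fold changes were -0.23 ± 0.08, -0.50 ± 0.22 and -0.18 ± 0.08, and Sulf1 had -0.23 ± 0.10. The adjusted p-values of the 6 by edgeR were between 0.742 and 0.746. Without AAV-GFP replicate 2 there were 2 lower, Sulf1 and Lxn, at an unadjusted p under 0.05 by edgeR, beside 1.78% of all genes. Without AAV-GFP-GA replicate 2 there was 1 lower, beside 2.42% of all genes. Dropping AAV-GFP-GA replicate 3 gave 3 lower and 1 higher, beside 2.93% of all genes in each direction. With AAV-GFP replicate 1 dropped, 3 were lower, beside 2.78%, and 2 higher, beside 390 of 14470 genes. Dropping AAV-GFP replicate 3 gave 5 lower and 1 higher, beside 10.3% and 9.5%. Dropping AAV-GFP-GA replicate 1 gave 4 lower and 0 higher, beside 300 and 325 of 14434 genes. Against AAV-GFP replicate 3 alone the list median was -0.06.

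**Figure D5:**
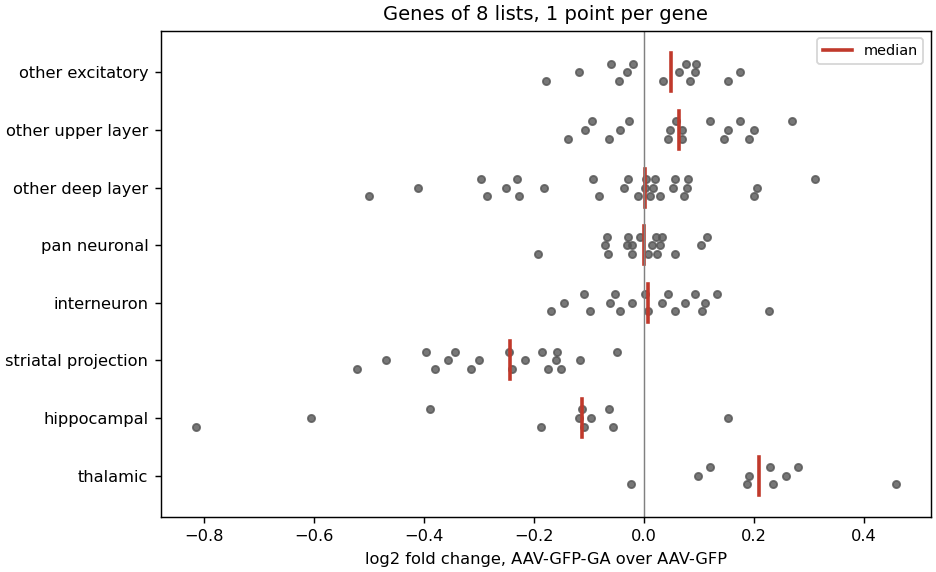
Log2 fold change, AAV-GFP-GA over AAV-GFP, of the tested genes of 8 marker lists, 1 point per gene, with the median of each list as a red bar. The other upper layer, other deep layer, pan-neuronal and interneuron lists have medians between -0.00043 and 0.06, while the striatal list lies wholly below 0, with a median of -0.24.

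Lists of markers shared by cortical neurons of many kinds had small median log2 fold changes. Their genes ran from -0.18 to 0.17 in the other excitatory, -0.19 to 0.12 in the pan-neuronal and -0.17 to 0.23 in the interneuron list. Of 14 other markers of excitatory neurons 0 passed by edgeR, 0 also at an unadjusted p under 0.05, with a median log2 fold change of 0.05. Camk2a, a kinase subunit of excitatory synapses, had 4089 ± 112 CPM in AAV-GFP-GA cortex and 3878 ± 243 CPM in AAV-GFP cortex, and Nrgn, which encodes neurogranin, had 1170 ± 46.4 and 1104 ± 95.1 CPM in the same order (SD, n = 3 each). Of 18 pan-neuronal markers 0 passed by edgeR, and 9 were positive and 9 negative. Nefl alone was higher at an unadjusted p under 0.05 by edgeR, beside 3.19% of all tested genes. Snap25 and Syt1, which encode proteins of vesicle release, had log2 fold changes of 0.01 ± 0.05 and -0.02 ± 0.05. Of 19 interneuron markers 0 passed by edgeR, 0 also at an unadjusted p under 0.05, with a median of 0.0077. Gad1, which encodes an enzyme that makes GABA, had a log2 fold change of -0.04 ± 0.06.

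Of the other cell types, 0 of 11 astrocyte, 13 oligodendrocyte, 12 microglia, 10 endothelial and 6 tested immature neuron markers passed by edgeR. Their median log2 fold changes were 0.02, 0.015, 0.08, 0.20 and -0.16. At an unadjusted p under 0.05 there were 0 astrocyte markers, 1 lower oligodendrocyte (Ermn), 4 higher microglia (among them Csf1r, C1qb and C1qc), 2 higher endothelial (Flt1 and Pecam1) and 1 lower immature neuron marker (Sox11), beside 3.19% higher and 3.45% lower of all tested genes. The microglia count depended on single libraries. It fell to 0 by edgeR when AAV-GFP-GA replicate 2 was dropped, and likewise when AAV-GFP replicate 1 was dropped. Dropping any other library kept 2 to 4 higher, the 4 in the fit lacking AAV-GFP replicate 3, beside 9.5% of all genes. The endothelial list kept 1 to 4 higher whichever library was dropped, but the background over all genes moved as well. Dropping AAV-GFP replicate 2 gave 1 endothelial marker higher, beside 227 of 14470 genes. The fit lacking AAV-GFP replicate 3 gave 4, beside 1370 of 14428 genes. A count of 4 was also reached beside 390 of 14470 genes, with AAV-GFP replicate 1 dropped. Leaving AAV-GFP-GA replicate 3 out gave 4 too, beside 2.93% of all genes. DESeq2 called 1 endothelial marker, Flt1, and otherwise DESeq2 and limma-voom called 0 in all lists of this text. The astrocyte genes Slc1a2 and Aldoc had log2 fold changes of -0.04 ± 0.07 and 0.09 ± 0.07, and the myelin gene Mbp had 0.07 ± 0.05. The microglia gene Csf1r had 0.13 ± 0.05, and the endothelial genes Flt1 and Slco1a4 had 0.41 ± 0.08 and 0.14 ± 0.11. Dcx and Sox11 of immature neurons had -0.18 ± 0.09 and -0.33 ± 0.09, with groups that did not overlap, as for 5.79% of all tested genes in that direction. The 4 Y-linked genes did not pass, with Ddx3y at 0.41 ± 0.74 and Eif2s3y at 0.27 ± 0.71. Against AAV-GFP replicate 3 alone, which had almost no reads of them, all 4 passed and made up 4 of the 9 genes that passed in that fit.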

How the data were processed

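Total RNA was extracted with Trizol, per the labels' protocols. The authors deposited expected counts per gene, as the values show: 7.32% to 7.81% of them per library were not whole. Bowtie2 2.2.5, RSEM 1.2.12 and mm10 are listed, per the submitters' processing notes. Which annotation and strand setting were used is not stated in the labels, so reads of overlapping and antisense genes cannot be told apart. An empty row was left out and 25 symbols turned into dates were restored.

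Rounded counts were filtered (filterByExpr), TMM-scaled (trimmed mean of M values) and compared between groups with edgeR 4.0.16 (R 4.3.3), two-sided, over all 6 libraries without covariates. P-values were adjusted over all tested genes by Benjamini-Hochberg. Each log2 fold change is given with its SE and is positive where AAV-GFP-GA is higher. The script was tested on simulated data. CPM use TMM-scaled library sizes, and RPKM use exon lengths of GENCODE vM21 (GRCm38, or mm10). Coordinates are RefSeq, 1-based. The chi-square between replicates of a group was 3.17 to 10.2 per degree of freedom, more than sampling noise gives.

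The 9 markers and 15 other lists were chosen with earlier results of these data known. Named were the markers, the most abundant 2 genes of each list where none passed, layer genes with an unadjusted p under 0.05, and the 3 genes nearest in pattern to each layer class, predicted genes left out. Nefl, Amotl1, Clic6, Scn4b, Ermn, C1qb, C1qc, Pecam1, Dsp and Zbtb20 were named after their values were seen. Some genes this rule selects are not reported here. Alternatives were DESeq2 1.42.0, limma-voom (limma 3.58.1), RLE scaling, other filters, a replicate block, a library set term (AAV-GFP replicates 1 and 2 against the rest) and leaving out each library.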

Additional observations from a re-analysis of the deposited data

How the results depend on the processing

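The count of 0 markers past the threshold held with DESeq2, limma-voom, RLE scaling, both other filters, the replicate block, the library set term and each library left out. Over these 13 alternatives the adjusted p lay between 0.111 and 0.9999 for Cux2 and between 0.135 and 0.9999 for Bcl11b. Cux2 was no longer under an unadjusted p of 0.05 without AAV-GFP replicate 2 and without AAV-GFP-GA replicate 3, nor was Bcl11b in these and without AAV-GFP-GA replicate 1 or 2. Neither was under it with the library set term, which leaves 1 control library. The count of all genes past the threshold was 3 by edgeR, 10 by DESeq2 and 9 with the library set term (4 of them Y-linked), and between 2 and 72 with 1 library left out, the 72 without AAV-GFP replicate 3. The upper minus deep difference of 0.16 was between 0.04 and 0.24 with 1 library left out, and 0.04 with the library set term. Leaving out 1 of 3 libraries cannot move this difference by more than the pooled SD between replicates. That SD therefore gives no measure of its stability. The log2 fold change of Tle4 changed sign without AAV-GFP-GA replicate 2, AAV-GFP replicate 1 and AAV-GFP replicate 3, to -0.030, -0.045 and -0.055, and with 1 library left out lay between -0.055 and 0.12. That of Tbr1 changed sign without AAV-GFP-GA replicate 2, to 0.020, and lay between -0.068 and 0.020. The cause was not tested. No other marker changed sign in any alternative.

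Same-numbered replicates deviated from their group means with correlations of 0.09, -0.13 and 0.06 over 14324 genes. Differently numbered ones had correlations from -0.23 to 0.17. The labels do not say that the numbers pair libraries. These correlations cannot decide it, since deviations from a mean of 3 libraries are tied to each other. With the replicate block 2 genes passed, 0 of them markers, and edgeR gave 3 markers an unadjusted p under 0.05 (Slc17a7, Cux2 and Bcl11b). Of all 14324 tested genes, 837 were under that level in the same fit. The upper minus deep difference is 0.16 there by construction, since pairing libraries of equal groups leaves the difference of means unchanged. Depth limits Foxp2 most, with 381 reads in its lowest library.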
